A study of Mus musculus with 14 samples.

Results

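The astrocytes of the mouse nucleus accumbens described here were 3525 of the 33225 cell barcodes kept from 8 Drop-seq pools (10.6%). Drop-seq captures single cells in droplets with barcoded beads and counts transcripts by unique molecular identifiers (UMIs). Barcodes were kept that had 300 or more detected genes and no more than 20% mitochondrial UMIs. It was called an astrocyte when the UMIs of Aqp4, Slc1a3, Gja1, Agt, Ntsr2, Slc7a10 and Cldn10 summed to at least 5, those of Mog, Mag, Pdgfra, Cldn5, Foxj1, Cx3cr1, Drd1 and Adora2a to at most 1, and those of Top2a and Mki67 to 0. The cells were thus chosen by these 17 genes, the gene count and the mitochondrial share, and the levels of those genes are given as a description only.

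All pools came from male C57BL/6 mice injected intraperitoneally with saline (mock, 4 pools) or morphine sulfate (4 pools), and each pool held 2 mice. The labels give neither dose nor time of collection. Pools 1 and 2 of each group came from mice of 37 to 45 days (the younger pools), and pools 3 and 4 from mice of 78 to 82 days (the older pools). Same-numbered mock and morphine pools held mice of the same ages. Pooled mice cannot be told apart, so n is the number of pools. The study also holds oligodendrocytes sorted from whole brains of other mice of 70 days, used below only as the source of a gene list.

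Astrocytes take up glutamate and potassium released by neurons, share ions through gap junctions, supply lactate and lipids, and wrap synapses and vessels. In the striatum, of which the accumbens is the ventral part, most protoplasmic astrocytes carry little Gfap, the intermediate filament that marks fibrous, subventricular and reactive astrocytes. Glucocorticoids, the adrenal stress hormones, act on astrocytes through a nuclear receptor that induces genes such as Fkbp5, a co-chaperone of that receptor, and Tsc22d3, a leucine zipper protein that mediates its anti-inflammatory action.

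The mock pools held 385, 796, 227 and 504 astrocytes in replicates 1 to 4 and the morphine pools 279, 607, 298 and 429, with 373078 to 1220175 UMIs per pool. The median astrocyte had 1486 UMIs and a marker sum of 17. At the limit of the rule, 152 cells with a sum of 5 lay inside and 206 cells with a sum of 4 lay outside; the former held 2087 UMI counts per 1000000 (CPM) of Slc1a2 and 1061 of Penk, the latter 1555 and 2602. The rule left out 820 barcodes for UMIs of other cells' markers and 94 for the genes of dividing cells. No doublet caller was run, and 728 astrocytes held 1 UMI of the excluded markers. Only 1 barcode sequence occurred among the astrocytes of 2 pools. Mock pool 1 stood apart: Gfap was detected in 16.6% of its astrocytes, against 5.56% to 10.7% in the other 7 pools, and in 2.45% of its medium spiny neurons, against 0.0801% to 0.742%.

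Genes that the rule did not use were also high in these cells and low in others. Slc1a2, the main glutamate transporter, ranged over the pools from 5064 to 7442 CPM, against 144 to 343 in the oligodendrocyte class and 107 to 321 in the medium spiny neuron class (both built by the same kind of marker rule). Aldoc, a glycolytic enzyme, ranged from 3427 to 6276, against 108 to 204 and 34.1 to 191. Apoe, the lipid carrier, ranged from 13677 to 22763, against 572 to 1573 and 74.6 to 747. Sox9, a transcription factor of astrocytes, ranged from 340 to 700 and reached at most 12 and 18.3 in the other classes. Gjb6, which encodes connexin 30, ranged from 535 to 979 and reached at most 22.3 and 17.9. Glul, glutamine synthetase, was shared with oligodendrocytes, at 2960 to 3813 in astrocytes and 928 to 1803 in the oligodendrocyte class. In all, 184 of the 1249 genes with at least 100 CPM in every pool were at least 4-fold above the other kept barcodes, among them Fzd2 (38.3-fold), Slc39a12 (33.5-fold), Sdc4 (32.6-fold) and Aldh1l1 (28-fold).

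**Figure D1:**
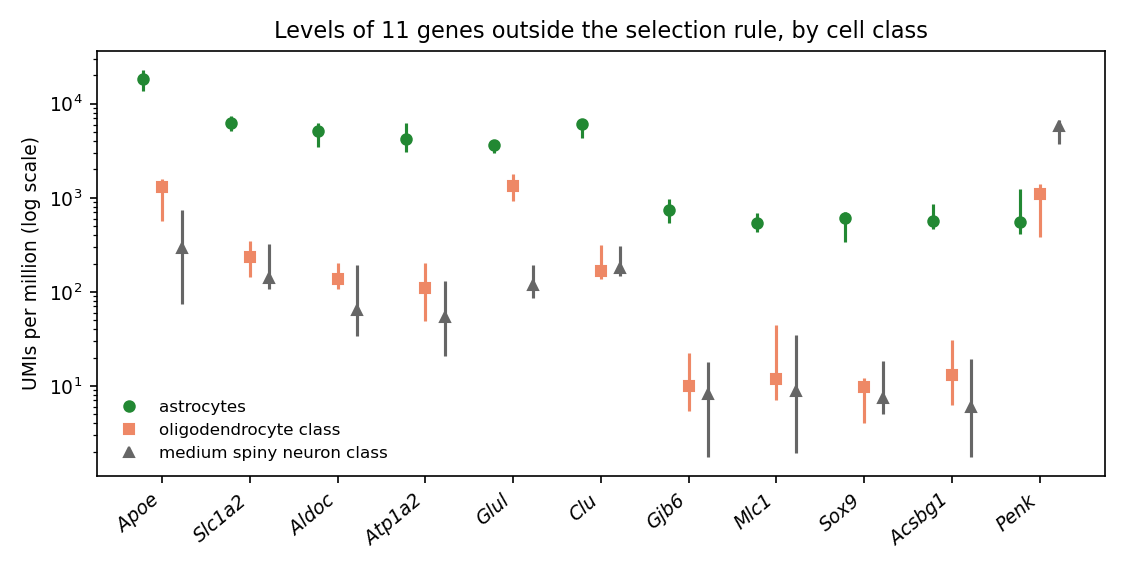
Levels of 11 genes outside the rule in CPM (log axis), with points at the median and lines from the lowest to the highest of the 8 pools. The astrocyte genes lie above both other classes; Penk (median 5839 in medium spiny neurons) lies lower in astrocytes.

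Transcripts of other cells were also present. Penk, the enkephalin precursor of indirect-pathway neurons, reached 408 to 1227 CPM in astrocytes, against 3717 to 6655 in medium spiny neurons. Summed over 12 genes, markers of medium spiny neurons took 1791 to 4566 CPM in mock astrocytes and 1725 to 3204 in morphine astrocytes. The sum over 11 genes of mature oligodendrocytes was 2370 to 4623 and 2060 to 4788, that over 10 microglial genes 125 to 602 and 161 to 328, and that over 9 endothelial genes 155 to 357 and 102 to 417. Markers of ependyma (8 genes) took 120 to 508 CPM in astrocytes, against 48.4 to 270 in the other kept barcodes, and those of neuroblasts and progenitors (11 genes) 568 to 964 against 512 to 856, so these 2 sums were not lower in astrocytes. Rarres2 and Enkur, of the ependymal list, had medians of 150 and 28.3 CPM in astrocytes and 44.5 and 15.4 in the others. None of the 10 marker lists separated the treatment groups, and no marker of them was at 0 over all pools. A few single barcodes held most of the counts of some foreign genes. In mock pool 1, 1 cell held 411 of the 466 UMIs of Npy, an interneuron peptide (88.2%), in mock pool 2 another held 608 of 667 (91.2%), and in morphine pool 1, 1 cell held 2968 of the 4320 UMIs of Ttr, the choroid plexus transthyretin (68.7%). In all, 17 astrocytes had 20 or more UMIs of globin genes (9 cells), of Npy and Sst (4 cells) or of Ttr (4 cells), and the tests between pools that rest on them are given with and without them.

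The share of astrocytes among kept barcodes was 13.3%, 13.6%, 7.90% and 9.04% in mock pools 1 to 4 and 9.79%, 10.6%, 10.6% and 9.17% in the morphine pools. The groups overlapped, and their means of 11% ± 2.93 and 10% ± 0.707 (SD, n = 4) did not differ beyond the spread (two-sided exact permutation p = 0.543, adjusted p = 0.724 over 4 such tests; 4 pools against 4 can give no p under 0.0286). The difference went in opposite directions in the younger pools (-3.26 percentage points) and the older ones (1.42). The median UMIs per astrocyte were 1693, 1230, 1346 and 1832 in mock pools and 1240, 1420, 1530 and 1857 in morphine pools (exact permutation p = 1.00, n = 4).

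Mitochondrial transcripts took a larger share of astrocyte UMIs in all 4 morphine pools than in any mock pool, though the adjusted p did not pass 0.05. The median share per cell was 5.81%, 4.75%, 4.18% and 5.25% in mock pools 1 to 4 and 9.06%, 8.65%, 7.41% and 10% in the morphine pools. The groups did not overlap, with means of 5.0% ± 0.698 and 8.79% ± 1.08 (SD, n = 4; exact permutation p = 0.0286, the smallest possible, adjusted p = 0.114). The rule had removed barcodes above 20% mitochondrial UMIs, so the shares compared were capped in both groups. Between younger pools the difference came to 3.58 percentage points, between older ones to 4.00. It lay in the ribosomal RNA: without mt-Rnr1 and mt-Rnr2 the median share was 1.62%, 1.55%, 1.34% and 1.30% in mock and 1.98%, 1.61%, 1.27% and 1.20% in morphine pools, and the groups overlapped (exact permutation p = 0.886, n = 4). The other kept barcodes also differed, with medians of 2.96% to 4.35% in mock and 4.63% to 6.72% in morphine pools (means 3.59% ± 0.606 and 5.35% ± 0.948). The gap between astrocytes and the other barcodes of the same pool was 1.41 ± 0.129 points in mock and 3.44 ± 0.504 in morphine pools (exact permutation p = 0.0286, n = 4, not adjusted and outside the 4 tests adjusted together). A gap in points also depends on the level of each class, which was higher in astrocytes in mock pools too. On the log2 scale the response of mt-Rnr2 in astrocytes differed by 0.08 ± 0.225 from the oligodendrocyte class and 0.11 ± 0.159 from medium spiny neurons, neither called.

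**Figure D2:**
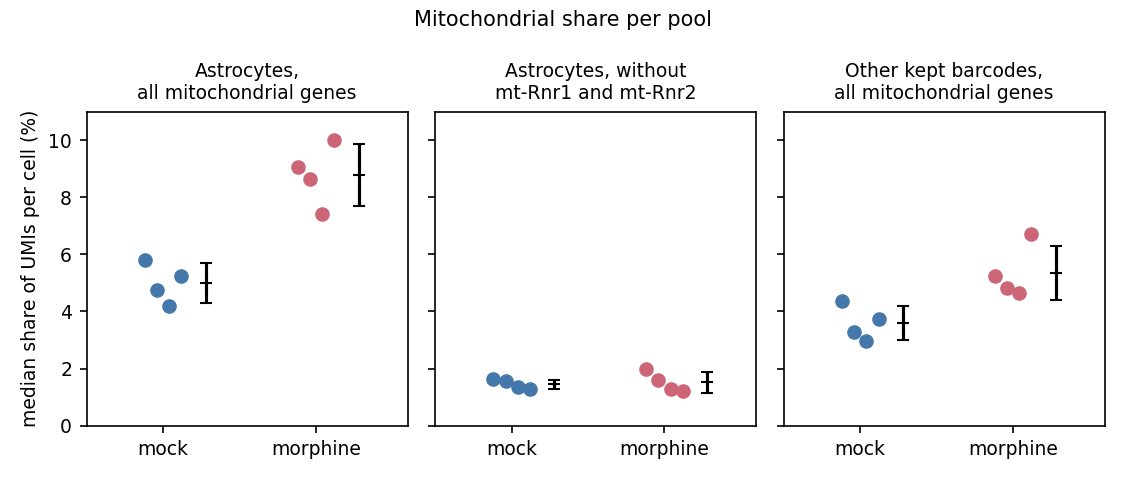
Median percentage of mitochondrial UMIs per cell, 1 point per pool, with the mean and SD of 4 pools beside them. The astrocyte groups are apart with all mitochondrial genes (4.18% to 5.81% against 7.41% to 10%) and overlap without both ribosomal RNAs.

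Whether morphine altered single genes in astrocytes was tested on UMIs summed per pool with edgeR's quasi-likelihood test and Benjamini-Hochberg adjustment over the 9355 genes that passed the filter on low counts. No gene was called at an adjusted p of 0.05 (0% of 9355), and 275 had an unadjusted p under 0.05 (2.94%). DESeq2 called 3 genes (0.0321%), all higher in morphine: mt-Rnr2, Cdkn1a and Tsc22d3. These were also the 3 of smallest p in edgeR. With the pool number as a block, edgeR called 5 genes, all higher in morphine: these 3, Malat1 and Ttr. Most Ttr UMIs came from morphine pool 1, with 4320 against 107 in mock pool 1. Morphine pool 3 had 62 against 5 in mock pool 3. Pools 2 had 6 in each group, and pools 4 had 1 in morphine and 0 in mock. All 4 morphine pools lay above all 4 mock pools in 66 genes (0.706%) and below them in 166 (1.77%).

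Cdkn1a encodes p21, an inhibitor of cyclin-dependent kinases. It stood at 56.1, 91.9, 48.3 and 102 CPM in mock pools 1 to 4 and at 347, 167, 267 and 211 in morphine pools 1 to 4. The groups did not overlap, with means of 74.7 ± 26.5 and 248 ± 77.7 (SD, n = 4). Its log2 fold change was 1.75 ± 0.276 (SE; edgeR adjusted p = 0.107, DESeq2 adjusted p = 6.88e-06), and 1.55 to 1.94 when each pool was left out in turn. In cells thinned to 1000 UMIs, a Cdkn1a UMI was seen in 3.91% to 8.56% of mock and 13.2% to 29.6% of morphine astrocytes, against 1.78% to 6.29% of medium spiny neurons thinned alike.

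Mt-Rnr2, the large mitochondrial ribosomal RNA, stood at 36986, 34940, 35004 and 40356 CPM in mock and 60703, 68546, 69421 and 83908 in morphine pools (mt-Rnr2: log2 1.02 ± 0.182, edgeR adjusted p = 0.218, DESeq2 adjusted p = 1.84e-07). Tsc22d3 stood at 386, 589, 692 and 634 in mock and 1249, 977, 1000 and 1169 in morphine pools (log2 1.01 ± 0.202, edgeR adjusted p = 0.457, DESeq2 adjusted p = 0.00454). Neither gene's groups overlapped. A Tsc22d3 UMI was seen in 27.6% to 47.2% of thinned mock and 55.8% to 65.5% of thinned morphine astrocytes, against 2.02% to 5.31% of thinned medium spiny neurons. Fkbp5 stood at 37.8, 33.2, 72.4 and 88.5 in mock and 153, 105, 161 and 98.0 in morphine pools (log2 1.23 ± 0.308, edgeR adjusted p = 0.999), again without overlap. Zbtb16, a zinc finger repressor, stood at 23.5, 52.7, 26.8 and 77.1 in mock and 67.1, 80.0, 81.2 and 123 in morphine pools, with overlap between the groups (log2 0.98 ± 0.315, edgeR adjusted p = 0.999). In the main edgeR fit, which has no block and takes all astrocytes, none of these genes passed the threshold. The calls of the first 3 depend on the tool, the model and the cell filter: with the block the edgeR adjusted p was 0.0151 for Cdkn1a, 2.65e-04 for mt-Rnr2 and 0.0180 for Tsc22d3. Without the block but with a marker sum of at least 8 it was 0.0207 for both Cdkn1a and mt-Rnr2. Without the block and without the 5% deepest astrocytes it was 0.0250 for both.

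**Figure D3:**
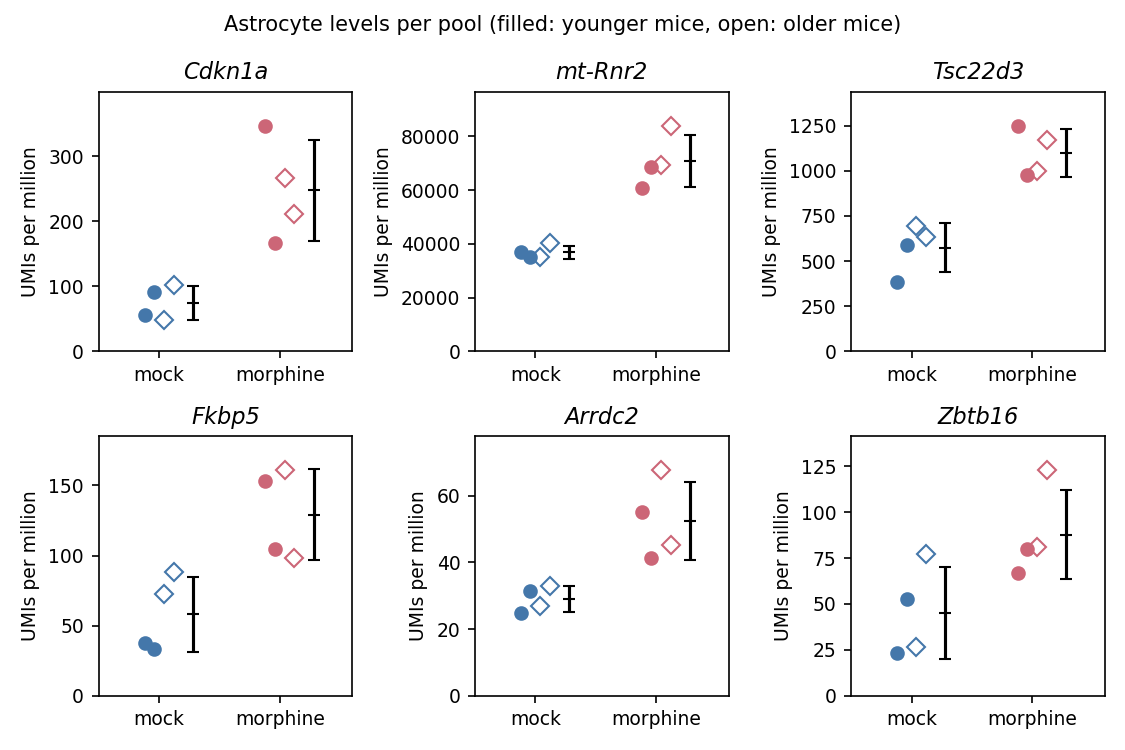
CPM in astrocytes for 6 genes, 1 point per pool (filled, younger mice; open, older mice), with the mean and SD of 4 pools. The groups are apart for Cdkn1a, mt-Rnr2, Tsc22d3, Fkbp5 and Arrdc2 and overlap for Zbtb16.

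The other genes of smallest p toward higher levels in morphine, none called, were Arl4d, a small GTPase (log2 2.32 ± 0.540), the immunity-related GTPase Irgm1 (1.10 ± 0.271) and the mitochondrial ribosomal protein Mrpl41 (0.75 ± 0.189). Arl4d rested on 85 UMIs in all pools. Toward lower levels, none called, the genes of smallest p were Npy (-2.06 ± 0.508), 1810030O07Rik (-1.0 ± 0.263), Gm266 (-1.02 ± 0.294), the activin subunit Inhba (-1.40 ± 0.413), Rnf24 (-0.74 ± 0.230), Kank1 (-0.96 ± 0.304), Mgp (-1.87 ± 0.594) and Ralgds (-0.84 ± 0.269). Without the 17 barcodes rich in foreign transcripts Npy turned to 0.39 ± 0.293, while Cdkn1a (1.77 ± 0.276), mt-Rnr2 (1.04 ± 0.174), Tsc22d3 (1.03 ± 0.202) and Fkbp5 (1.24 ± 0.305) kept their size and 0 genes were called. The genes that define astrocyte work stayed close to 0: Slc1a2 at -0.08 ± 0.190, Glul at 0.08 ± 0.174, Apoe at -0.07 ± 0.200 and Aldoc at -0.13 ± 0.206 on the log2 scale (all with edgeR adjusted p = 0.999). Gfap itself had a log2 fold change of -0.30 ± 0.462. Hspa1b, a stress-induced chaperone, had 59 UMIs in all pools and was not tested.

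The glucocorticoid-responsive list, 30 genes chosen with earlier results of these data known, lay in one direction. All 26 tested members had a higher level in morphine astrocytes, with a median log2 fold change of 0.46, beside 4574 of all 9355 genes (48.9%) and a median of -0.01. No member was called by edgeR. In 5 of the 26 all 4 morphine pools lay above all 4 mock pools (0.706% of all genes did so): Cdkn1a, Tsc22d3, Fkbp5, the arrestin-domain gene Arrdc2 and the sulfotransferase Sult1a1. Arrdc2 stood at 24.8, 31.5, 26.8 and 32.8 in mock and 55.1, 41.4, 67.7 and 45.2 CPM in morphine pools (log2 0.88 ± 0.251). Other members included Cebpb (1.26 ± 0.396), Nfkbia, the NF-kappa-B inhibitor (0.72 ± 0.264), Txnip (0.71 ± 0.523), Sgk1, a serum- and glucocorticoid-induced kinase (0.59 ± 0.391), Mt1 (0.28 ± 0.238) and Mt2 (0.20 ± 0.213). The lowest values were those of Bcl6 (0.05 ± 0.348) and Glul.

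**Figure D4:**
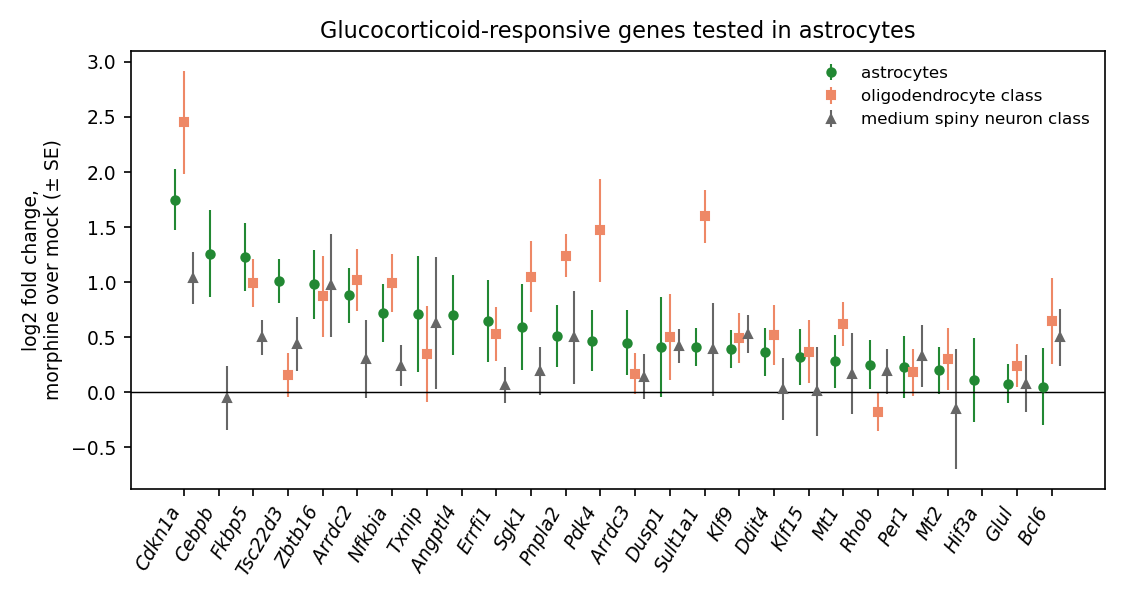
Log2 fold change of morphine over mock, with SE, for the 26 tested glucocorticoid-responsive genes, in astrocytes and in 2 other classes of the same pools. All 26 astrocyte points lie above 0, the highest being Cdkn1a at 1.75.

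Start regions of the genes of smallest p are shown because the list was chosen as responsive to glucocorticoids, which act through a nuclear receptor. They come from RefSeq on build GRCm38.p6 and run 250 bases before to 50 after an annotated start, 5′ to 3′. RefSeq gives 2 windows for Cdkn1a and 3 for Tsc22d3, of which the ones printed are those with a match. In the Cdkn1a window (chr17:29090729-29091028, plus strand) capitals mark a pair of CATG cores of a p53 element with 6 bases of any kind between them. In the Tsc22d3 window (chrX:140600473-140600772, minus strand) capitals mark TGTTCT, the reverse complement of the glucocorticoid receptor hexamer AGAACA.
Cdkn1a: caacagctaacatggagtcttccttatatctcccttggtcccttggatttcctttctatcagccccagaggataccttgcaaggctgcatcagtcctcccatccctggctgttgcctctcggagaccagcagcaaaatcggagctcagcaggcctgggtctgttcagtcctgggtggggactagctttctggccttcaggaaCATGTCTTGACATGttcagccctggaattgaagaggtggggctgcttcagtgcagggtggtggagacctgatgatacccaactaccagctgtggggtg
Tsc22d3: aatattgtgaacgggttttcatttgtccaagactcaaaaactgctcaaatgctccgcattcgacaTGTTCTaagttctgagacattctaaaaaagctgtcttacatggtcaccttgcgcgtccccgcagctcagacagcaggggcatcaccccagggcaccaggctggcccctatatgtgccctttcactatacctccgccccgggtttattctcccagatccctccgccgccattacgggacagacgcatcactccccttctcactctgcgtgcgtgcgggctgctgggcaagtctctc
Both strands were searched. AGAACA was found in 19.0% of all 32851 such windows and in 16.2% of the 37 windows of the 24 list genes with an entry (genes Bcl6, Sgk1, Sult1a1 and Tsc22d3). The spaced CATG pair was found in 0.712% of all windows and, in the list, only in the Cdkn1a window. The other Cdkn1a window, the other 2 of Tsc22d3 and the windows of Fkbp5 and Arrdc2 held neither motif. A match is a run of letters, not a bound site. Per GENCODE vM21 on GRCm38, Cdkn1a lies on chromosome 17 (29090976 to 29100727, plus strand, with an exon of AC167363.2 on the other strand), Fkbp5 on chromosome 17 (28399094 to 28517527, minus strand), Tsc22d3 on chromosome X (140539528 to 140600659, minus strand), and mt-Rnr2 on the mitochondrial genome (1094 to 2675). Whether counting used strand is not given in the sources used here.

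Of the immediate early genes, which neurons and glia induce within minutes of stimulation or tissue handling, all 13 tested were higher in morphine astrocytes (median log2 0.86), with no call and no member whose groups were apart. Junb stood at 45.6, 41.7, 45.6 and 45.9 CPM in mock and 81.5, 24.8, 232 and 85.7 in morphine pools (log2 1.30 ± 0.471), and Nr4a1 had 0.97 ± 0.375. Morphine pool 2 lay below every mock pool for Junb and morphine pool 3 far above the rest. By age, 12 of its 13 members were higher in the older pools (median 0.85).

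The lists of astrocyte work had medians near that of all genes, and no member was called. Glutamate uptake and glutamine synthesis had 2 of 7 members higher in morphine (median -0.08; Glud1 -0.24 ± 0.174, Glul 0.08 ± 0.174). Transport and synthesis of GABA, glycine and serine had 4 of 9 (median -0.05; Abat -0.24 ± 0.173, Srr 0.30 ± 0.262), and potassium, water and gap junctions 5 of 10 (median -0.01; Gjb6 0.38 ± 0.193, Kcnj10, the potassium channel Kir4.1, -0.51 ± 0.289). Glycolysis, lactate and glycogen had 6 of 11 (median 0.03; Slc16a1 -0.55 ± 0.298, Pdk4 0.47 ± 0.276), lipid transport and oxidation 5 of 11 (median -0.01; Acaa2 0.21 ± 0.207, Acsbg1 -0.20 ± 0.198) and cholesterol synthesis 12 of 15 (median 0.12; Fdft1 0.34 ± 0.196). The receptors of astrocytes had 5 of 13 (median -0.11; the purine receptor P2ry1 -1.09 ± 0.471, Adrb1 -0.45 ± 0.330). P2ry1 stood at 13, 14.5, 13.4 and 11.5 CPM in mock and 2.4, 10.1, 7.74 and 1.88 in morphine pools, without overlap, among the 1.77% of genes of that kind. It was higher in medium spiny neurons (15.3 to 52.2 CPM), and the part of neuronal transcripts in its counts was not tested. Adrb1, Grm5, Gabbr1 and Adora1 of the receptor list also had higher medians in medium spiny neurons than in astrocytes. Adra1a, Grm3, Gabbr2, Itpr2, Fgfr3, Ednrb and Gpr37l1 had higher medians in astrocytes. Kcnj10 had a median of 268 CPM in the oligodendrocyte class against 191 in astrocytes. Secreted and synapse-organising genes had 6 of 13 (median -0.01; Sparc 0.44 ± 0.279, Ncan -0.27 ± 0.242), and transcription factors and Notch genes 9 of 14 (median 0.10; Rfx4 0.33 ± 0.275, Nfia 0.23 ± 0.261).

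Stress, reactive and opioid lists gave no call either. Of the reactive astrocyte list only 8 of 24 genes passed the filter, 4 higher and 4 lower (S100a10 -0.41 ± 0.282, Hspb1 0.75 ± 0.752), and of the regional list 4 of 9 were higher (Igfbp5 -0.37 ± 0.254, Crym -0.27 ± 0.223). Heat shock chaperones had 5 of 11 higher (median -0.02; Hspa8 -0.30 ± 0.207, Hsph1 -0.30 ± 0.264). The unfolded protein and integrated stress response had 3 of 12 (median -0.18; the chaperone Calr -0.53 ± 0.197, Manf -0.50 ± 0.235), the clock list 6 of 14 (median -0.07; Ciart 0.64 ± 0.270, Clock 0.39 ± 0.260) and the interferon list 1 of 5 (median -0.04; Stat2 0.33 ± 0.438). Opioid signalling had 3 of 9 (median -0.14; Penk -0.71 ± 0.275, Pdyn -0.45 ± 0.406). Penk and Pdyn are neuron genes, and their counts were lower together with the markers of medium spiny neurons (2 of 11 higher, median -0.12), and the part of such transcripts was not tested. Metallothioneins had 2 of 3 higher (median 0.20). Mitochondrially encoded mRNAs had 6 of 7 higher with a median of 0.08 (mt-Co1 0.43 ± 0.223, mt-Nd5 0.37 ± 0.195), against 0.91 for both ribosomal RNAs (mt-Rnr1 0.79 ± 0.280).

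Among markers of other cells, 5 of 9 tested genes of other neurons were higher in morphine (Npy -2.06, Sst -1.34 ± 0.526, which turned to 0.40 ± 0.335 without the 17 barcodes), 2 of 8 of neuroblasts and progenitors (Tubb2b -0.25 ± 0.212) and 5 of 11 of mature oligodendrocytes (Trf 0.56 ± 0.406, Aspa 0.51 ± 0.484). For oligodendrocyte precursors it was 1 of 3 (Olig1 -0.57 ± 0.387, Olig2 -0.66 ± 0.468), for microglia 1 of 6 (C1qa -0.55 ± 0.612), for endothelium 2 of 6 (Ly6a -0.80 ± 0.563, Itm2a -0.32 ± 0.413) and for mural cells 3 of 6 (Tagln -1.06 ± 0.661, Rgs5 0.67 ± 0.511). All 7 ependymal markers were higher (Dynlrb2 0.90 ± 0.639, Enkur 0.64 ± 0.595) and all 4 red blood cell genes lower (Hbb-bt -1.45 ± 0.911, Hba-a1 -1.19 ± 0.852; without the 17 barcodes -1.23 ± 0.695 and -1.03 ± 0.630). None was called. The ependymal sum was 507, 378, 150 and 120 CPM in mock and 508, 139, 497 and 300 in morphine pools, so the groups overlapped.

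The response was then compared with that of other cells of the same pools. An interaction of class and treatment, with the pool as a block, called 0 of 10894 genes between astrocytes and the oligodendrocyte class (0%; 433 at an unadjusted p under 0.05; DESeq2 also called 0) and 0 of 12165 between astrocytes and medium spiny neurons (0%; 295 unadjusted; DESeq2 0). Cdkn1a had log2 fold changes of 1.75 ± 0.276 in astrocytes, 2.45 ± 0.470 in the oligodendrocyte class and 1.04 ± 0.236 in medium spiny neurons; the differences were -0.85 ± 0.306 and 0.70 ± 0.244 (edgeR adjusted p = 1.00 for both). Mt-Rnr2 had 1.02, 0.92 ± 0.213 and 0.92 ± 0.160 in the same order, with differences of 0.08 ± 0.225 and 0.11 ± 0.159. Fkbp5 had 1.23, 0.99 ± 0.219 and 0.50 ± 0.159. Tsc22d3 had 1.01, 0.16 ± 0.199 and 0.44 ± 0.245, and its difference from oligodendrocytes, 0.88 ± 0.201, was the smallest p among genes with a larger response in astrocytes but was not called (edgeR adjusted p = 0.725). The glucocorticoid-responsive list had 23 of 24 members higher in the oligodendrocyte class (median 0.57) and 22 of 24 in medium spiny neurons (median 0.31); the 3 classes share their pools.

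Other genes with a larger change toward morphine in astrocytes than in the oligodendrocyte class, not called, were Rgs5 (1.71), Arl4d (2.16), Ezh2 (0.94), Ralgps2 (0.92), Hgf (3.74), AK129341 (1.12) and Pxmp2 (1.30). In the other direction, not called, were Phactr3 (-1.38), Klf5 (-3.59), Npy (-3.80), Sst (-3.14), Nos1 (-2.59), Sult1a1 (-1.16 ± 0.241), Fam107a (-0.97) and Kctd6 (-1.27), each with an edgeR adjusted p of 0.239 or more. Without the 17 barcodes the differences of Npy and Sst were -1.66 ± 0.660 and -1.70 ± 0.561, and 0 genes were called against either class. Tma16, a ribosome biogenesis factor, had a log2 fold change of 0.27 ± 0.375 in astrocytes and 2.07 ± 0.394 in the oligodendrocyte class, a difference of -1.62 ± 0.400 (edgeR adjusted p = 0.989). Against medium spiny neurons the genes of smallest p, not called, were Dlk1 (1.28), Mrpl41 (0.88), Arl4d (2.13), Dusp18 (0.94), Ezh2 (0.87), Dapk3 (1.44), 9330159F19Rik (0.67) and Rai14 (4.06) in one direction and Klf5 (-2.94), Vip (-3.28), Inhba (-1.47), Efemp1 (-2.18), 1810030O07Rik (-0.92), Nos1 (-2.36), Ncald (-0.71) and Nr4a3 (-2.09) in the other (edgeR adjusted p = 1.00 for all). Vip, Npy, Sst and Nos1 are interneuron genes.

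Sorted oligodendrocytes gave a list of genes with a higher level after morphine in other mice: 354 of 15759 genes tested there (2.25%) had an adjusted p under 0.05 and a log2 fold change of at least 1, in 353 current symbols. Of these, 179 were tested in astrocytes and 115 were higher in morphine (64.2%, median log2 0.13), beside 48.9% of all genes. In the oligodendrocyte class of the same pools it was 204 of 223 (91.5%, median 0.39) and in medium spiny neurons 131 of 225 (58.2%, median 0.05). With the list taken from the authors' deposited table instead, 107 of 167 were higher in astrocytes (64.1%). The members of smallest p in astrocytes were Cdkn1a, Arl4d, Fkbp5, Arrdc2 and Mgp. Of the 179, all 4 morphine pools lay above all 4 mock pools in 9 (5.03%, beside 0.706% of all genes) and below them in 2 (1.12%, beside 1.77%), Mgp among the latter; Mfsd2a, a lipid transporter, had 0.52 ± 0.171 and Synm, synemin of intermediate filaments, 1.20 ± 0.436.

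Age differed between pools 1 and 2 and pools 3 and 4 of both groups and was tested with treatment as a covariate. Pool number is nested in age, so age cannot be told apart from anything else that went with the pool number. The fit treated the 4 pools of an age as independent, and the labels do not say whether same-numbered pools were prepared together. edgeR called 0 of 9355 genes (0%), 791 had an unadjusted p under 0.05, and DESeq2 called 6 (4 higher and 2 lower in older pools). All 4 older pools lay above all 4 younger pools in 240 genes (2.57%) and below them in 241 (2.58%). Toward higher levels in older pools, not called by edgeR, were Malat1, a nuclear long noncoding RNA (0.92 ± 0.164), Gm20417 (1.30 ± 0.242), Emx2, a homeobox factor of the forebrain (0.86 ± 0.175), Ttc14 (0.83 ± 0.173), the Wnt agonist Rspo3 (1.37 ± 0.292), Acin1 (0.71 ± 0.154), Fam193a (1.12 ± 0.254) and Mafg (0.97 ± 0.225). Emx2 stood at 65.2, 58.7, 57.5 and 57.9 CPM in the younger pools, against 91.1, 108, 106 and 117 at the older age. Malat1 stood at 8000, 8757, 14096 and 14506 in the younger and 17345, 16418, 24724 and 23679 in the older pools, mock before morphine. Neither gene's age groups overlapped.

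Toward lower levels in older pools, not called by edgeR, were Hap1 (-1.50 ± 0.252), Pde1b (-1.35 ± 0.258), Sst (-1.68 ± 0.347), Pdcl3 (-1.13 ± 0.246), Phyhip (-0.86 ± 0.190), mt-Tv (-1.57 ± 0.347), Npy (-1.58 ± 0.358) and Sez6 (-0.80 ± 0.184). Hap1 stood at 65.2, 51.9, 64.7 and 54.3 in the younger and 18.8, 26.2, 21.3 and 14.1 in the older pools, without overlap. Its median was 101 CPM in medium spiny neurons (43.3 to 157) and 39.1 in astrocytes, and the part of neuronal transcripts in its counts was not tested. Pde1b is an abundant gene of medium spiny neurons, of whose markers 8 of 11 were lower in older pools (median -0.40; Tac1 -1.01 ± 0.261). Other foreign lists lay in the same direction: 10 of 11 for mature oligodendrocytes (median -0.53; Mal -0.98 ± 0.364, Trf -0.92 ± 0.361), 6 of 6 for microglia (median -1.20; Ctss -1.33 ± 0.436), 6 of 6 for endothelium (median -0.61; Ly6a -1.58 ± 0.439, Itm2a -0.85 ± 0.367) and 6 of 7 for ependyma (median -0.61; Tmem212 -1.41 ± 0.709, 1110017D15Rik -1.07 ± 0.575). Their part in the age difference was not tested. Without the 17 barcodes Npy moved to -0.24 ± 0.295 and Sst to -0.73 ± 0.295. Leaving out morphine pool 3 gave 4 calls: Cck, Nrn1, Pde1b and Sst.

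By list, 13 of 14 astrocyte transcription factors and Notch genes were higher in older pools (median 0.33; Emx2, Id4 0.49 ± 0.186), in 2 of them with all older pools above all younger ones (2.57% of all genes did so), and none was called. All 7 mitochondrially encoded mRNAs were lower (median -0.41; mt-Nd1 -0.51 ± 0.175, mt-Nd4 -0.47 ± 0.187), 4 of them without overlap (2.58% of all genes). Both ribosomal RNAs diverged, mt-Rnr1 at -0.48 ± 0.257 and mt-Rnr2 at 0.19 ± 0.169. Metallothioneins were lower in 3 of 3 (Mt3 -0.40 ± 0.343, Mt1 -0.19 ± 0.236) and cholesterol synthesis was higher in 10 of 15 (median 0.17; Lss 0.67 ± 0.238, Hmgcs1 0.39 ± 0.170). Among immediate early genes Egr1 had 0.85 ± 0.257 and Klf4 1.75 ± 0.553. The lists of glutamate (2 of 7 higher; Slc25a18 -0.73 ± 0.263, Slc1a2 0.28 ± 0.171), GABA, glycine and serine (3 of 9; Slc6a9 -1.44 ± 0.485, Slc6a11 -0.54 ± 0.411), potassium and water (6 of 10; Dtna 0.51 ± 0.182), glycolysis (5 of 11; Slc2a1 -0.54 ± 0.236, Aldoc 0.30 ± 0.190) and lipids (6 of 11; Acsl3 0.32 ± 0.209, Cpt1a 0.25 ± 0.198) had medians between -0.09 and 0.02.

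The remaining lists were divided. Receptors had 7 of 13 higher in older pools (Itpr2 0.49 ± 0.232, Grm3 0.44 ± 0.225), secreted genes 7 of 13 (Chrdl1 0.45 ± 0.232, Thbs4 0.99 ± 0.538), reactive genes 2 of 8 (S100a10 0.55 ± 0.244, Cp -0.98 ± 0.502) and regional genes 5 of 9 (Igfbp2 -0.69 ± 0.340, Igfbp5 0.47 ± 0.234). Glucocorticoid-responsive genes had 14 of 26 (median 0.03; Cebpb 1.06 ± 0.298, Arrdc3 -0.61 ± 0.254). Heat shock had 3 of 11 (Dnajb1 -0.65 ± 0.274, Hspe1 -0.38 ± 0.184), the stress response 4 of 12 (Manf -0.51 ± 0.196, Dnajb9 -0.38 ± 0.217), the clock 9 of 14 (Per3 0.50 ± 0.216, Tef 0.31 ± 0.168), opioid signalling 4 of 9 (Pdyn -0.88 ± 0.363, Gnai2 0.29 ± 0.188) and interferon genes 2 of 5 (Ifit3 0.36 ± 0.339). Markers of other neurons had 3 of 9, of neuroblasts 4 of 8 (Egfr 0.28 ± 0.279), of precursors 1 of 3 (Olig1 -0.97 ± 0.322, Vcan 0.35 ± 0.243), of mural cells 4 of 6 (Rgs5 -1.41 ± 0.399, Vtn -1.75 ± 0.497) and of red blood cells 0 of 4 (Hbb-bs -1.33 ± 1.168, Hbb-bt -1.31 ± 1.169; without the 17 barcodes -1.92 ± 0.447 and -2.06 ± 0.575, not called).

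Whether the morphine response differed with age was tested by an interaction term over 10330 genes. The 3 genes called (0.0290%) were globins of red blood cells, not genes of astrocytes: Hba-a1 (log2 6.83 ± 0.936), Hbb-bt (7.53 ± 1.079) and Hba-a2 (7.03 ± 1.022), each with an edgeR adjusted p of 0.0444, and DESeq2 called the same 3. Hba-a1 stood at 762, 267, 34.9 and 10.7 CPM in mock and 55.1, 34.9, 261 and 98.0 in morphine pools. Of the globin UMIs, 1 cell held 1170 of 3311 in mock pool 1, 937 of 1462 in mock pool 2, 689 of 779 in morphine pool 3 and 550 of 626 in morphine pool 4. Without the 17 barcodes 0 genes were called, and the values were 0.04 ± 1.203 for Hba-a1, 2.33 ± 1.047 for Hbb-bt and 0.71 ± 0.953 for Hba-a2. Not called, next by p, were Hbb-bs (5.77), Thbs4, an astrocyte-secreted thrombospondin (3.45 ± 0.621), Notum (3.29), Cd24a (3.74) and Btg2 (2.71), and toward a smaller response in older pools Nts (-3.38), Calb2 (-5.27), Crh (-7.04), Myoc (-7.22), Gpc3 (-7.75), Ptgs1 (-2.78), Cpeb3 (-1.55) and Nrp2 (-2.47). Thbs4 stood at 43.0, 39.1, 16.1 and 34.4 in mock and 7.19, 12, 50.3 and 98.9 in morphine pools.

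Astrocytes differed among themselves along Gfap. With each cell thinned to 1000 UMIs (682 shallower cells left out), 158 of 2843 astrocytes held a Gfap UMI: 12.4%, 5.10%, 6.15% and 3.13% in mock and 4.37%, 4.88%, 7.91% and 2.84% in morphine pools, against 0.0404% to 0.291% of thinned medium spiny neurons. The group means, 6.69% ± 4.00 and 5.0% ± 2.13 (SD, n = 4), did not differ beyond the spread (exact permutation p = 0.514, adjusted p = 0.724). Without mock pool 1 the difference was 0.204 percentage points, in the other direction.

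Cells with and without a Gfap UMI were summed separately in each pool and compared with the pool as a block, so both sums of a pool share its mice and its preparation. Of 1865 genes tested besides Gfap and the genes of the rule, 45 were called (2.41%). Of these, 18 rose and 27 fell in cells with Gfap. The p-values of this fit do not rest on each gene's spread between pools alone, so pool counts are given beside some of them. Igfbp5, an insulin-like growth factor binding protein, had 837 ± 354 CPM with and 236 ± 78 without Gfap (SD, n = 8), higher in 7 of 8 pools (log2 1.79 ± 0.194, edgeR adjusted p = 3.24e-15). Vim, vimentin, the filament partner of Gfap, had 448 ± 67.7 and 185 ± 47.7, higher in 8 of 8 pools (1.21 ± 0.245, edgeR adjusted p = 1.87e-04). Cpe, carboxypeptidase E, had 6733 ± 799 and 3890 ± 608, higher in 8 of 8 (0.72 ± 0.109). Sparc, a matricellular protein, had 1883 ± 981 and 897 ± 225, higher in 7 of 8 (0.89 ± 0.139), and Fxyd1, a regulator of the sodium pump, 1097 ± 264 and 552 ± 61.2, higher in 8 of 8 (0.88 ± 0.161). Hopx, a homeodomain protein of neural stem cells, rose by 1.54 ± 0.292 and was higher in 6 of 8 pools. The others of the 12 smallest p upward were Nnat (0.84), Tmem47 (0.67), Scd2 (0.57), S100a6 (0.99), Gm14964 (1.38) and Fbxo2 (0.87). Mlc1, a membrane protein of astrocyte endfeet, also rose (0.63 ± 0.167).

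Genes that fell in cells with Gfap were led by Crym, a thyroid hormone binding protein of striatal astrocytes, with 494 ± 357 CPM against 1306 ± 349 (SD, n = 8), lower in 7 of 8 pools (log2 -1.49 ± 0.182, edgeR adjusted p = 3.31e-12). Htra1, a secreted protease, had 1621 ± 434 against 2704 ± 332 (-0.78 ± 0.133), Ptn, pleiotrophin, 2413 ± 864 against 3868 ± 799 (-0.73 ± 0.124) and F3, tissue factor, 526 ± 170 against 897 ± 172 (-0.90 ± 0.186), each lower in 8 of 8 pools. Slco1c1, the thyroxine transporter, fell by 1.09 on the log2 scale and was lower in 7 of 8, and the prosaposin receptor Gpr37l1 fell by 0.70. Id2 (-0.62), Fjx1 (-0.98), Calm2 (-0.77), Hacd2 (-0.82) and Apod (-1.90) also fell, as did Hbb-bs (-1.90 ± 0.269), which was lower in only 5 of 8 pools. That split was not fitted without the 17 barcodes, and globin UMIs were seen in 14.7% to 75.6% of the astrocytes of a pool. The neuronal Snap25 fell as well (-0.95 ± 0.257), the 1 called gene of 8 tested markers of medium spiny neurons, 7 of which were lower. Calm2 stood at 563 to 1700 CPM in all astrocytes and at 4230 to 5794 in medium spiny neurons. Apod stood at 25.4 to 416 in all astrocytes and at 2946 to 5603 in the oligodendrocyte class, with 11 UMIs in the cells with Gfap. Of 5 tested markers of mature oligodendrocytes 3 were lower, 2 were higher and none was called. Whether transcripts of neurons or oligodendrocytes in the cells without Gfap bear on these or the other genes was not tested. Slc1a2 (0.06 ± 0.108), Glul (0.06 ± 0.115), Apoe (-0.02 ± 0.104), Aldoc (-0.11 ± 0.112), Fkbp5 (0.63 ± 0.429), Cdkn1a (-0.03 ± 0.357) and mt-Rnr2 (0.03 ± 0.104) did not pass the test.

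Mock pool 1 gave 44 of the 158 Gfap cells. Without it 44 genes were called, 38 of them among the 45 and in the same direction. Leaving out each pool in turn gave 31 to 44 calls. The calls also moved with the thinning: at 2000 UMIs 41 genes were called, 19 of them among the 45, and with another random draw at 1000 UMIs 34, 29 of them among the 45. On the reference genome (GENCODE vM21, GRCm38) Igfbp5 lies on chromosome 1 (72857932 to 72874884), Gfap on chromosome 11 (102887336 to 102900912) and Crym on chromosome 7 (120186380 to 120202111), all on the minus strand. Hopx has an exon of Hopxos, and Tmem47 one of Gm26775, on the other strand, and Gm14964 is itself annotated as antisense to Nrxn2.

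**Figure D5:**
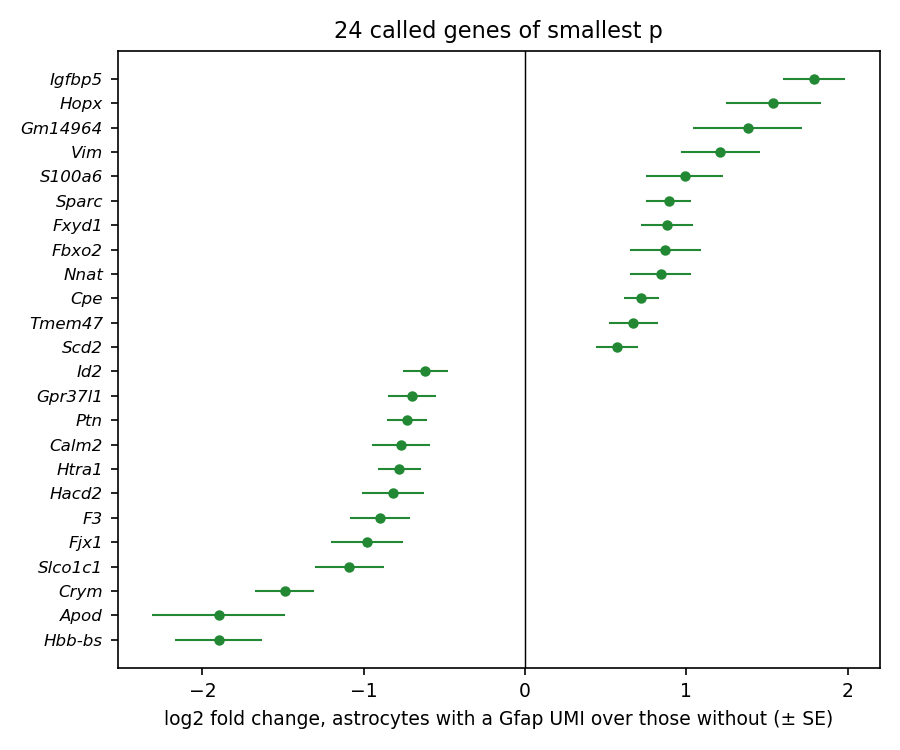
Log2 fold change (with SE) of astrocytes with a Gfap UMI over those without, after thinning, for the 12 called genes of smallest p in each direction; 8 pools, pool as a block. Igfbp5 is highest at 1.79, and Apod and Hbb-bs are lowest at -1.90. Apod was higher in the oligodendrocyte class than in astrocytes, and Hbb-bs is a globin gene.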

How the data were processed

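Nucleus accumbens tissue of 8 pools of 2 mice was profiled by Drop-seq. Per the file headers, the authors made the deposited UMI counts with the DigitalExpression tool. Per the submitters' processing notes, STAR 2.4.2a, Trimmomatic 0.36, HTSeq, DESeq2 and DESeq were used for the series with build mm10, with no role stated for each. The deposited table of sorted oligodendrocytes holds read counts, and the authors' deposited table gives log2 fold changes and adjusted p-values for them. That deposited table also holds the authors' mean normalised signal per gene and a Wald score, not used here. Both serve here only as the source of a list. The strand setting of the counting is not given in the sources used here.

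Of 31383 symbols, 1221 were renamed to current ones. The 20858 genes listed both in a replicate 1 pool and in a pool of another replicate were kept. This left out 0.777% of the UMIs of the replicate 1 pools and 0.014% of the others. The members were found by the rule in Python 3.11.15 with numpy 2.4.6, scipy 1.17.1 and pandas 2.3.3. UMIs were summed per pool, since cells are not replicates. For treatment, age and the class comparisons, p-values measure the spread between pools of 2 mice. In the Gfap split they do not rest on each gene's spread between pools alone. There Hbb-bs was called (edgeR adjusted p = 3.91e-09) although it was lower in 5 pools and higher in 3. R 4.3.3 with edgeR 4.0.16 (quasi-likelihood test after filterByExpr, libraries scaled by TMM, Benjamini-Hochberg adjusted p under 0.05) gave the main results and DESeq2 1.42.0 an alternative; each adjusted p is from edgeR unless DESeq2 is named. SE is the log2 fold change divided by the square root of the F statistic. Levels are UMI counts per 1000000 (CPM) over the kept genes. The oligodendrocyte class (4367 cells) held at least 5 UMIs of Mog, Mag, Mobp, Ermn, Opalin, Aspa and Mal, and the medium spiny neuron class (11092 cells) at least 5 of a medium spiny neuron marker set that included Drd1, Drd2, Adora2a, Rgs9, Ppp1r1b and Pde10a, each with at most 1 UMI of other cells' markers. The fits were tested on simulated data. No 2 pools agreed within sampling noise (chi-square per gene at least 2.30). Barcodes with an undetermined base (72 astrocytes) were kept.

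The members, gene lists and tests were chosen with earlier results of these data known. Named are the 12 called genes of smallest p per direction (or, where fewer than 6 were called, the 8 of smallest p), the 2 members of smallest p in each list for treatment and age, and a set of genes named in any case; some genes that this rule names are not reported here. Alternatives were other scalings, filters, marker limits, a replicate block and leaving out each pool. The fits without the 17 barcodes rich in foreign transcripts, and the leave-one-out fits of the age interaction and of the comparison with medium spiny neurons, were chosen after seeing the data.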

Additional observations from a re-analysis of the deposited data

Results flagged for a closer look

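In 78 groups of 4 pools (4 pool-wide measures and the genes named for treatment, by group), 4 pools lay far from the other 3 of their group, 5.13%, while chance flags about 1 group in 20. Mgp, a matrix protein of vascular cells, stood at 158 CPM in mock pool 3. Glul stood at 2960 in morphine pool 4, below the other 3. In mock pool 1 Tma16 stood at 6.52, below the others, and Hspa1b at 26.1, above them.

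The morphine response differed between older and younger pools, by the interaction test, in Hba-a1 (log2 6.83), Hbb-bt (7.53) and Hba-a2 (7.03); all 3 calls were lost without 17 barcodes, as given above.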

How the results depend on the processing

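With a main count of 0 for morphine, DESeq2 called 3 genes, no filter on low counts 13 (12 of them past the filter of the main fit), a marker sum of at least 8 gave 2, no UMI of other cells' markers 1, leaving out the 5% deepest astrocytes 2, and the younger pools alone 3 (Npy, Hba-a1 and Hba-a2, all lower), none of which was called without the 17 barcodes (0 calls). RLE scaling, an age term, fits without mitochondrial genes, a marker sum of at least 3, at most 10% mitochondrial UMIs, at least 1000 UMIs, the older pools alone and each pool left out gave 0. The replicate block called 5 genes, all higher in morphine: mt-Rnr2, Ttr, Malat1, Cdkn1a and Tsc22d3. Without the 17 barcodes it called the same 5 (Ttr 5.64 ± 0.595 with and 4.12 ± 0.389 without them). Ttr stood at 10353 CPM in morphine pool 1, where 1 cell held 68.7% of its UMIs and 94.6% of the astrocytes held at least 1. Same-numbered pools correlated in their deviations by 0.282, 0.049, 0.232 and 0.493. Each morphine pool correlated best with the mock pool of its own number, while mock pool 2 correlated best with morphine pool 3 (0.204). Same-numbered pools also share the ages of their mice and the number of deposited barcodes. The labels state no pairs, so the main fit used no block. Whether the fit with or without the block suits the design better was not tested. For age, DESeq2 called 6 and no filter 95 (70 past the filter); leaving out each pool gave 0 to 4. For the age interaction the values were 0 without the 17 barcodes and 0 to 5 with each pool left out (0 without mock pool 1, mock pool 4, morphine pool 1 or morphine pool 2), in each such fit with 1 group of a single pool assumed to vary like the others. Against oligodendrocytes each pool left out gave 0 to 1 (Phactr3 without mock pool 4, Rgs5 without morphine pool 3). For Gfap, the fit without thinning called 73, of which 25 were among the 45. It set cells with at least 2 Gfap UMIs against cells with 0, at any depth, so it differs from the main split in more than thinning. Thinning to 2000 UMIs called 41 (19 among the 45), another draw 34 (29), and leaving out each pool 31 to 44.

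The difference in mitochondrial share was 0.0586 points without both ribosomal RNAs and 3.38 to 4.25 with each pool left out, where 3 against 4 pools cannot reach a p of 0.05. The differences in Gfap share ran from -2.88 to 0.204 points and in median UMIs from -129 to 88.6. Of 27 genes followed for treatment, Apoe (0.00) and Tma16 (-0.18) turned in the older pools alone, Npy (0.39) without the 17 barcodes, and with each pool left out Apoe ran from -0.17 to 0.05 and Gfap from -0.65 to 0.05. The cause of these changes was not tested. Depth limits genes such as Arl4d and Hspa1b, with under 100 UMIs in all pools.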
